A study of Glycine max with 48 samples.

Results

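The genes described here encode the enzymes at the fork between flavonols and anthocyanins, 9 of the 57147 genes in the deposited tables. The list was chosen by enzyme identity with earlier results of these data in view, and DFR2 (GLYMA_17G252200) had been selected on the size of its difference between heated and control sepals. It holds a pair of neighbouring flavanone 3-hydroxylase genes (F3H, GLYMA_02G048400 and GLYMA_02G048600), flavonoid 3'-hydroxylase (F3'H, the T locus, GLYMA_06G202300), flavonoid 3',5'-hydroxylase (F3'5'H, the W1 locus, GLYMA_13G072100), flavonol synthase (FLS1, GLYMA_13G082300), dihydroflavonol reductase (DFR1, GLYMA_14G072700, and DFR2, the W4 locus) and a pair of anthocyanidin synthase genes (ANS, GLYMA_11G027700 and GLYMA_01G214200). All sepal values for heat against control are therefore given as a description, with no test. A gene symbol for each of the 9 is listed by RefSeq on the chromosome that its identifier names. The 2 ANS copies are numbered the opposite way in the list and in RefSeq, so they are called by identifier.

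In plants, F3H makes dihydroflavonols, the last intermediates that flavonols and anthocyanins share. F3'H and F3'5'H add hydroxyl groups to the B ring and set whether the products belong to the cyanidin or the delphinidin series. FLS turns dihydroflavonols into flavonols, which are colourless copigments and UV screens, whereas DFR and then ANS lead towards coloured anthocyanins. In soybean, W1 is the classical locus for purple against white flowers, W4 modifies that purple colour, and T is known for tawny against gray hairs.

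RNA was sequenced from the sepal, anther, ovary and stigma of soybean flowers (Glycine max, cv Magellan), with 3 libraries in each of 16 groups and 48 libraries in all. Each library came from its own pool of 10 to 15 flowers of 8 to 10 plants. Control plants had days at 28 °C, nights at 24 °C and 100% of the transpirable water, and for water deficit this supply was cut to 30% at unchanged temperatures. For heat, days were at 38 °C and nights at 28 °C with the 100% supply, and combined stress joined the heat to the 30% supply. All plants had been inoculated with Bradyrhizobium japonicum and grown for 16 to 18 days in pots to their first open flower before treatment began. The treatments ran in 4 chambers side by side, and with 1 chamber per treatment, chamber and treatment cannot be told apart.

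Levels are FPKM, fragments scaled to gene length and to the mapped fragments of the library, so they can be set side by side between genes. A gene was tested in an organ where the mean of any of the 4 groups came to 1 FPKM or more, and it was called where limma's Benjamini-Hochberg adjusted p over all tested genes of the organ was under 0.05. Log2 fold changes are differences of log2(FPKM + 1), which understate the change of low genes. Genes that reached 1 FPKM ranged in number from 29771 to 31827 in sepal libraries, 21198 to 28209 in anther libraries, 30513 to 31295 in ovary libraries and 30514 to 31587 in stigma libraries. Sepal control replicate 3 held 2.29% of its FPKM from 1757 genes enriched in the anther, more than any other sepal library. No identifier could be matched to a named tissue marker. Such groups of enriched genes were defined from the labelled organs themselves, so they are no independent check of the organ labels.

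Among the 4 organs sequenced, which did not include petals, the anthocyanin steps were concentrated in the sepal in control flowers. The ANS copy GLYMA_01G214200 stood at 283 ± 36.7 FPKM (SD, n = 3) in control sepals, followed by 6.92 ± 3.63 in stigmas, 5.74 ± 1.42 in ovaries and 2.95 ± 1.31 in anthers. The other ANS copy, GLYMA_11G027700, stood at 145 ± 24.2 FPKM in sepals, 7.33 ± 1.07 in ovaries, 2.45 ± 1.16 in stigmas and 1.77 ± 1.07 in anthers. Sepal libraries lay above every other library for both copies, while stigma and ovary overlapped for GLYMA_01G214200, and stigma and anther overlapped for GLYMA_11G027700. DFR2 was at 90.1 ± 20.0 FPKM in control sepals and between 2.04 ± 1.25 and 3.33 ± 1.78 in the other organs, which overlapped in the order stigma, ovary, anther. F3'5'H was at 59.6 ± 16.6 FPKM in sepals and between 0.204 ± 0.182 and 0.987 ± 0.703 elsewhere. In each neighbouring pair of organs after the sepal, the libraries overlapped for both of these genes.

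The genes of the shared and flavonol steps were spread more evenly. FLS1 was highest in control sepals at 143 ± 15.1 FPKM, and stood at 92.5 ± 8.45 in stigmas, 83.6 ± 12.2 in ovaries and 66.5 ± 13.7 in anthers. The sepal libraries did not overlap with the stigma libraries, whereas stigma with ovary and ovary with anther did. F3H GLYMA_02G048400 was the most abundant of the 9 genes in the controls of every organ, at 495 ± 15.9 FPKM in stigmas, 390.0 ± 11.7 in sepals, 369 ± 11.01 in ovaries and 91.1 ± 22.2 in anthers. Sepal and ovary overlapped for this gene, and the stigma lay above both and the anther below both. The 1757 anther-enriched genes held 54.2% to 60.3% of FPKM in control anthers and 0.363% to 2.29% in control sepals. That share lowers the FPKM of other anther genes, and the place of the anther in these orders was not examined without it. F3'H, the hydroxylase of the cyanidin series, was low throughout, at 8.49 ± 1.45 FPKM in sepals, 1.13 ± 0.188 in stigmas, 0.989 ± 0.245 in ovaries and 0.116 ± 0.0994 in anthers. DFR1, the other dihydroflavonol reductase, was lowest where DFR2 was highest. It was listed at 0 in all 3 control sepals, and its highest control mean was 2.08 ± 0.842 FPKM in ovaries, above every stigma and anther library.

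**Figure D1:**
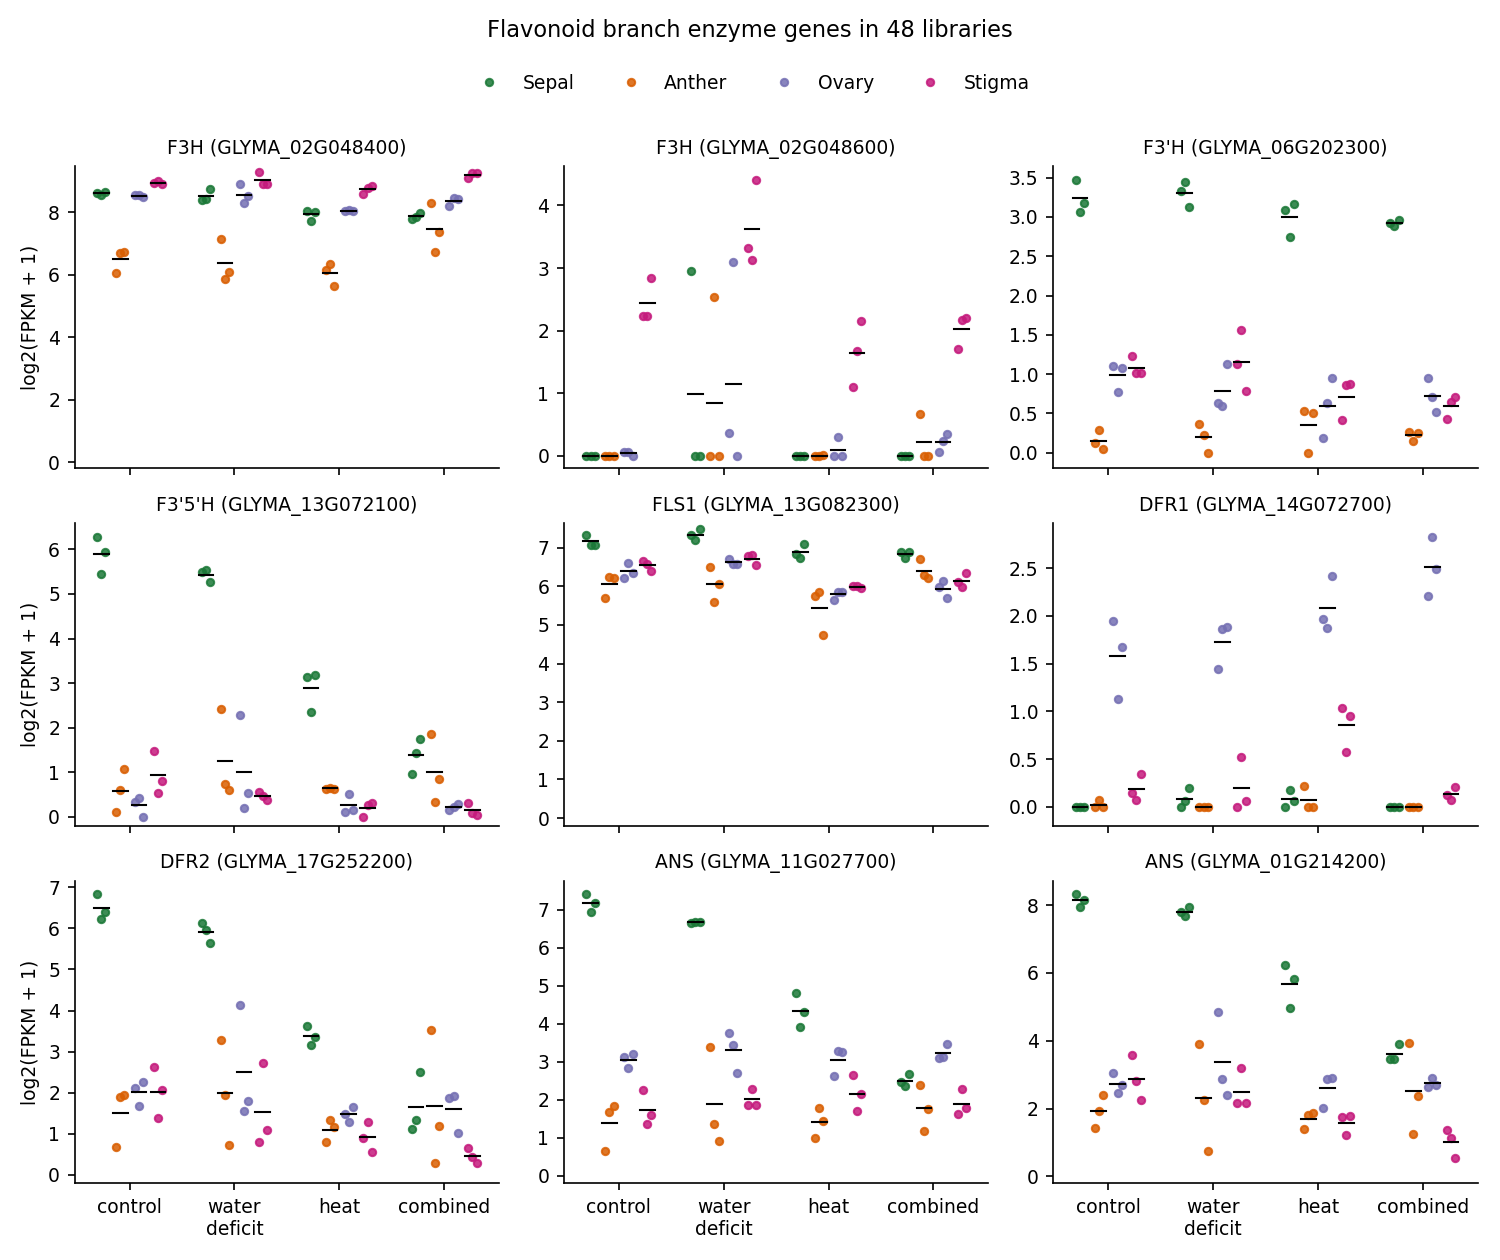
Level of each of the 9 genes in all 48 libraries, as log2(FPKM + 1), by treatment (horizontal axis) and organ (colour). Points are libraries and black bars are means of 3. The sepal points of F3'5'H, DFR2 and both ANS copies step down under heat and again under combined stress. Those of F3H GLYMA_02G048400 are lower than control by a smaller step under both, and those of FLS1 stay near their control level on this scale.

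The second F3H gene, GLYMA_02G048600, carries an uncertain estimate. Its neighbour GLYMA_02G048400 lies on the same chromosome under the same symbol, and the sources used here do not say how reads that match both were divided. In sepals GLYMA_02G048600 was below 1e-06 FPKM in every library except water-deficit replicate 1, which had 6.71. In the stigma it was at 3.72, 3.71 and 6.16 FPKM in the controls, 9.03, 7.73 and 20.2 under water deficit, 1.13, 2.203 and 3.46 under heat and 2.27, 3.52 and 3.62 under combined stress. The stigma is thus the organ where it was estimated above 1 FPKM in every library, with its highest values under water deficit.

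Water deficit alone was compared with control first, to see the effect of low water without heat. In the sepal, limma called 0 of the 8 members tested (0.208% of all tested sepal genes were called). In every sepal comparison F3H GLYMA_02G048600 was among the 8 only through water-deficit replicate 1, at 6.71 FPKM. An unadjusted p under 0.05 was reached by 4183 of all 33179 tested sepal genes and by 1 member. That member was ANS GLYMA_11G027700, at 170.4, 122 and 143 FPKM in the controls and 99.7, 102 and 102 under water deficit (log2 fold change -0.50, 95% interval -0.92 to -0.09, limma adjusted p = 0.292). DFR2 stood at 113, 74.4 and 83.2 FPKM in the controls and at 68.5, 60.8 and 49.2 under water deficit. For these genes and for ANS GLYMA_01G214200, each water-deficit library was lower than each control, a pattern seen in 10.4% of tested sepal genes. FLS1 and F3H GLYMA_02G048400 overlapped between the groups, with log2 fold changes of 0.18 (95% interval -0.08 to 0.44) and -0.08 (95% interval -0.34 to 0.17).

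In heated sepals the genes of the 2 branches stood at different levels relative to control. Relative to the control mean, DFR2 was at 10.53% ± 1.88 (SD, n = 3), F3'5'H at 11.2% ± 3.71, ANS GLYMA_11G027700 at 13.8% ± 4.43 and ANS GLYMA_01G214200 at 18.8% ± 7.72. FLS1 was at 82.5% ± 11.04, F3'H at 83.2% ± 13.9 and F3H GLYMA_02G048400 at 62.6% ± 7.47. The fit placed 5 of 8 tested members lower and 0 higher, where 11.3% of all tested sepal genes were called, and since this contrast had a part in the choice of genes nothing is read from that count.

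The library values show how far the groups lay apart. DFR2, whose product commits dihydroflavonols to the pigment branch, had 11.3, 7.91 and 9.27 FPKM in the heated sepals (log2 fold change -3.11, SE 0.32). F3'5'H, the hydroxylase of the delphinidin series, went from 76.0, 42.9 and 60.0 FPKM in the controls to 7.75, 4.11 and 8.12 under heat (log2 fold change -2.99, SE 0.27). The control and heated libraries of both genes lay far apart. ANS GLYMA_11G027700 had 26.9, 14.1 and 19.0 FPKM under heat (log2 fold change -2.83, SE 0.19). ANS GLYMA_01G214200 had 320.4, 247 and 282 FPKM in the controls and 73.8, 30.3 and 55.7 under heat (log2 fold change -2.47, SE 0.26). Heated replicate 2 was the lowest of the heated sepals for F3'5'H, DFR2 and both ANS copies, and replicate 1 or 3 the highest. In F3H GLYMA_02G048400 the step was smaller, from 395, 377 and 398 FPKM to 265, 211 and 257, again without overlap (log2 fold change -0.68, SE 0.12). FLS1 was at 160.2, 134 and 134 FPKM in the controls and 114, 104 and 135 under heat, and these groups overlapped (log2 fold change -0.28).

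Combined stress lowered the pigment steps of the sepal to a few percent of control. DFR2 was left at 2.73% ± 2.14 (SD, n = 3) of its control mean, F3'5'H at 2.81% ± 1.18, ANS GLYMA_11G027700 at 3.22% ± 0.439 and ANS GLYMA_01G214200 at 3.99% ± 0.786. Against these, FLS1 was at 79.3% ± 4.47, F3'H at 77.7% ± 2.68 and F3H GLYMA_02G048400 at 60.0% ± 3.998. Of 8 tested members, 5 fell and 0 rose, where 24.1% of all tested sepal genes were called, and the members' median log2 fold change was -2.62 beside -0.10 for all tested sepal genes. The control libraries are those of the heat comparison, which had a part in the choice of genes. The 2 comparisons are not independent, so this count and the p-values that follow describe the genes and are no independent support.

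Under combined stress DFR2 had 1.16, 1.54 and 4.68 FPKM (log2 fold change -4.83 with SE 0.32, and adjusted p = 1.16e-05 by limma). F3'5'H had 0.954, 1.70 and 2.36 FPKM (log2 fold change -4.50 with SE 0.27, and adjusted p = 5.88e-06 by limma). For both genes replicate 3 was the highest of the combined-stress sepals and still far under every control. ANS GLYMA_11G027700 had 4.52, 4.12 and 5.37 FPKM (log2 fold change -4.68 with SE 0.19, and adjusted p = 1.54e-07 by limma), and GLYMA_01G214200 had 10.1, 9.94 and 13.9 (log2 fold change -4.54 with SE 0.26, and adjusted p = 4.91e-06 by limma). Among the 33179 tested sepal genes, 3 had a lower log2 fold change than DFR2 under combined stress and 6 a lower one than ANS GLYMA_11G027700. For ANS GLYMA_01G214200 this number was 8 and for F3'5'H it was 9. Such ranks are descriptions, as the genes were chosen with heated and control sepals in view. F3H GLYMA_02G048400, upstream of both branches, fell to 222, 229 and 252 FPKM (log2 fold change -0.74 with SE 0.12, and adjusted p = 0.00102 by limma). FLS1 was at 117, 106 and 116 FPKM, each lower than every control (log2 fold change -0.33, 95% interval -0.59 to -0.07, limma adjusted p = 0.0643), and F3'H was at 6.62, 6.36 and 6.81 FPKM (log2 fold change -0.31, limma adjusted p = 0.129). Neither of these passed the threshold. In tissue pools, fewer cells of a type and less RNA per cell cannot be told apart.

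The fall can be set beside other genes of the sepal. A group of 686 other genes enriched in the sepal (a sepal mean of 5 FPKM or more, and 8 times that of each other organ or higher) held between 6.35% and 8.70% of FPKM in control sepals, 7.67% to 7.81% under heat and 7.20% to 7.56% under combined stress. The summed FPKM of F3'5'H, DFR2 and both ANS copies was 487 to 679 in the controls, 412 to 433 under water deficit, 56.4 to 119.7 under heat and 16.7 to 26.3 under combined stress. Stressed sepals enter the definition of the group, which limits what its share can show. By the same definition F3'H, F3'5'H, DFR2 and both ANS copies were themselves enriched in the sepal, and F3H GLYMA_02G048400, FLS1 and DFR1 were not.

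**Figure D2:**
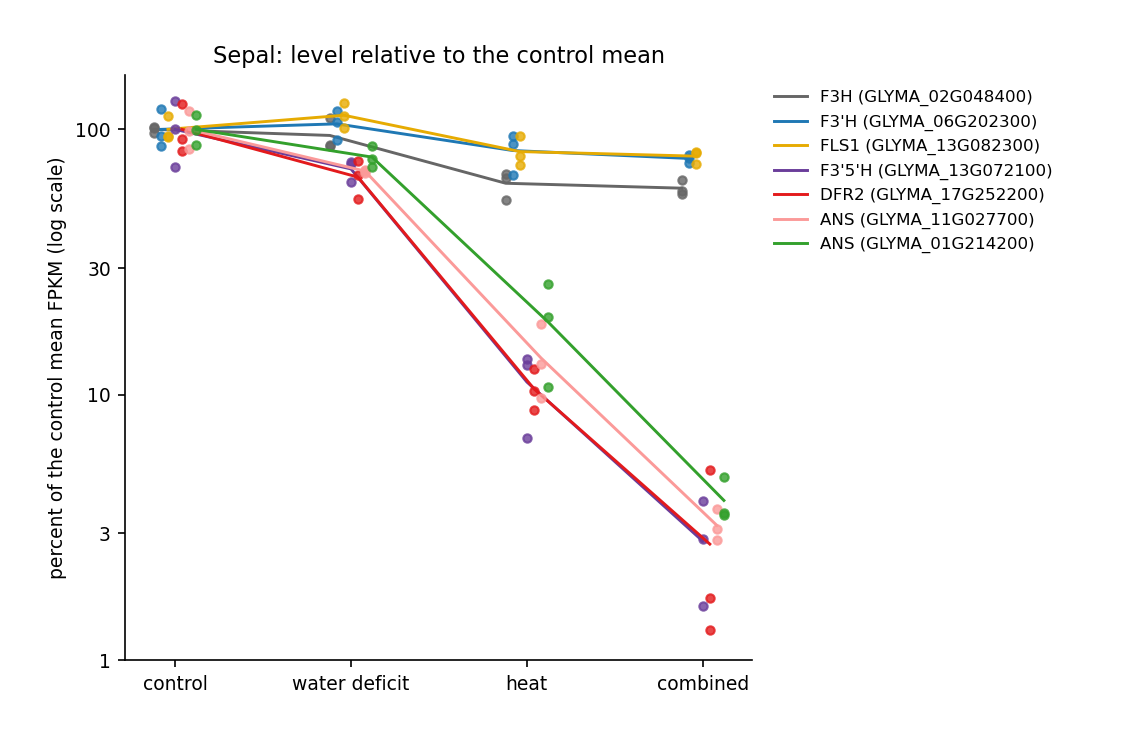
Level of 7 of the genes in the sepal as percent of the control mean FPKM (log scale) under each treatment. Points are the 3 libraries of a group and lines join group means. The group means of F3'5'H, DFR2 and both ANS copies reach between 10.53% and 18.8% under heat and between 2.73% and 3.99% under combined stress. Those of F3H GLYMA_02G048400, F3'H and FLS1 stay at 60.0% or more, and single F3H libraries lie lower.

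The pigment genes were lower still where low water was added to heat. Between combined stress and heat, 4 of 8 members were lower and 0 higher, where 3.35% of all tested sepal genes were called. The log2 difference was -1.51 (SE 0.27, limma adjusted p = 0.0123) for F3'5'H, -1.72 (SE 0.32, adjusted p = 0.0155) for DFR2, -1.85 (SE 0.19, adjusted p = 0.000613) for ANS GLYMA_11G027700 and -2.07 (SE 0.26, adjusted p = 0.00212) for ANS GLYMA_01G214200. For all 4 genes the combined-stress libraries lay under the heated ones, a pattern whose share among all tested sepal genes was not computed. FLS1, F3'H and F3H GLYMA_02G048400 differed between combined stress and heat by -0.05 (95% interval -0.31 to 0.21), -0.08 (-0.38 to 0.23) and -0.06 (-0.31 to 0.20). DFR2 lost its call without heat replicate 1, heat replicate 3 or combined replicate 2 (adjusted p = 0.0598, 0.0582 and 0.0668) and F3'5'H without heat replicate 3 (adjusted p = 0.0554), and without heat replicate 3 only the 2 ANS copies were called. The heated sepals had a part in the choice of genes, so these values are not independent support.

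Whether water deficit acted more strongly in hot sepals than in cool ones was tested as an interaction, and limma called 0 of 8 members (0.0422% of all tested sepal genes). Of the 8, 4 had an unadjusted p under 0.05, beside 2377 of all 33179 tested sepal genes, and all 4 values were negative. The interaction was -1.72 (95% interval -2.53 to -0.91, adjusted p = 0.213) for ANS GLYMA_01G214200, -1.34 (-1.93 to -0.76, adjusted p = 0.159) for ANS GLYMA_11G027700, -1.14 (-2.13 to -0.16, adjusted p = 0.647) for DFR2 and -1.06 (-1.89 to -0.22, adjusted p = 0.589) for F3'5'H. Without heat replicate 2, 1 member passed. The heated and control sepals that had a part in the choice of genes enter this contrast too, so nothing further is read from its signs. Between combined stress and water deficit, 6 of 8 members were lower and 0 higher (15.2% of all tested sepal genes were called), the same 5 as against control and FLS1 (log2 difference -0.50, limma adjusted p = 0.0151). FLS1 lost that call without water-deficit replicate 3 (adjusted p = 0.0633) or combined replicate 2 (adjusted p = 0.0596).

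**Figure D3:**
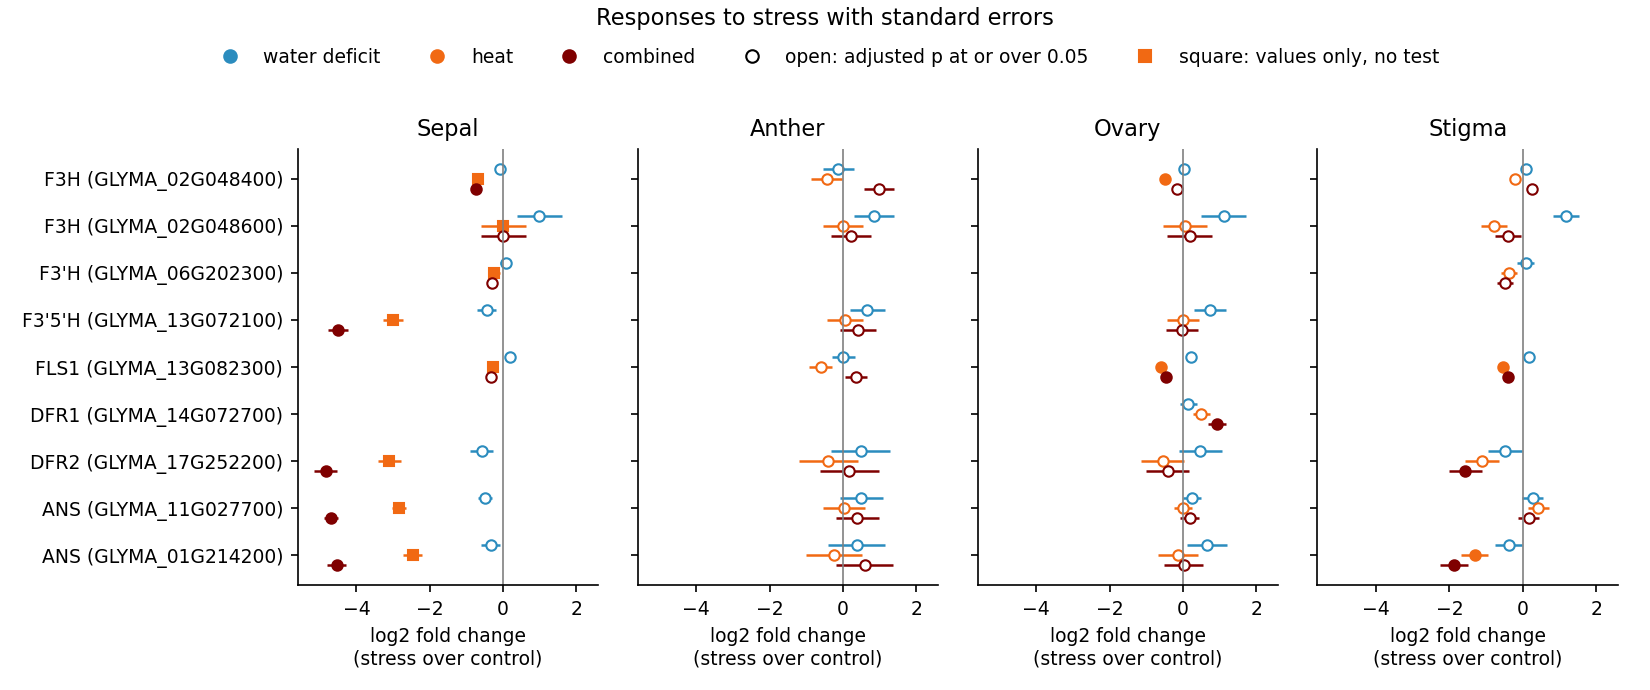
Log2 fold change (stress over control, on log2(FPKM + 1)) with its standard error for each tested gene in each organ. Filled circles were called and open circles were not; squares are the sepal values under heat, given with no test. The sepal values of F3'5'H, DFR2 and both ANS copies lie between -4.83 and -4.50 under combined stress, and the stigma is the other organ with called falls of DFR2 (-1.57) and ANS GLYMA_01G214200 (-1.87).

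The balance of the branches within each library changed accordingly in the sepal. The ratio of FLS1 to summed DFR1 and DFR2 was 1.61 ± 0.192 (SD, n = 3) in control sepals, 2.78 ± 0.727 under water deficit, 12.5 ± 2.26 in heat and 64.7 ± 38.1 under combined stress, with no overlap between any of these groups. Its range under combined stress was 24.9 to 101, as the denominator was down to a few FPKM. The ratio of F3'5'H to F3'H was 6.95 ± 0.957 in controls, 4.77 ± 0.188 under water deficit, 0.923 ± 0.178 in heat and 0.253 ± 0.102 under combined stress. In control sepals the transcript of the delphinidin-series hydroxylase thus exceeded that of the cyanidin-series enzyme in each library, and under combined stress it was the lower one in each. These ratios are built from the falls above, are descriptions and were given no test. Between the ANS copies the balance moved less, with GLYMA_11G027700 at 33.8% ± 0.835 of summed ANS in controls, 31.3% ± 2.00 under water deficit, 28.0% ± 3.37 in heat and 29.4% ± 1.498 under combined stress.

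**Figure D4:**
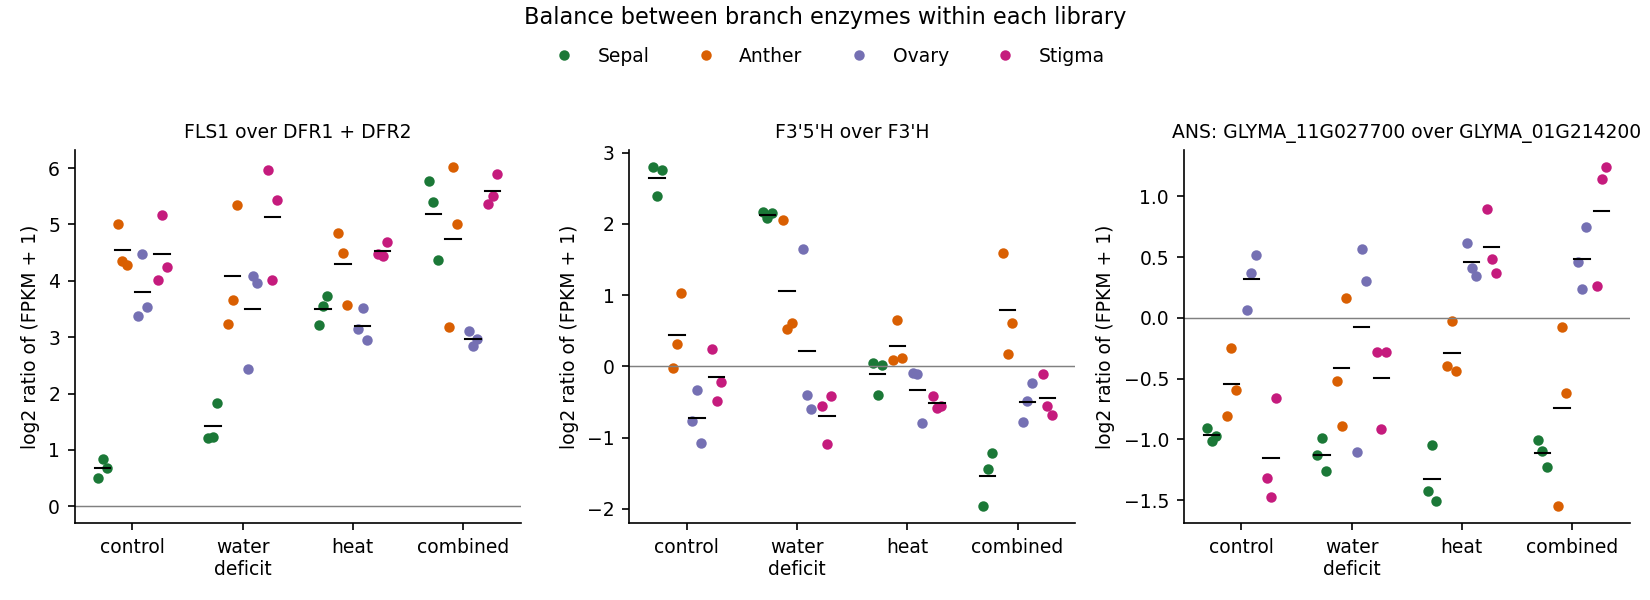
Log2 ratio of (FPKM + 1) within each library for FLS1 over summed DFR, F3'5'H over F3'H, and the ANS copies, by treatment and organ (colour). Points are libraries and bars are means of 3. In the sepal the first ratio steps up and the second steps down through water deficit, heat and combined stress, and in the stigma the ANS ratio goes from negative in every control to positive in every heated and combined-stress library.

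In the stigma the genes were low, but some of the pigment steps fell there too. Under heat 2 of 7 tested members were lower and 0 higher (13.9% of all tested stigma genes were called), and under combined stress 3 of 7 were lower and 0 higher (26% of all tested stigma genes). ANS GLYMA_01G214200 was at 10.9, 6.10 and 3.78 FPKM in control stigmas, 2.35, 1.31 and 2.45 under heat and 1.56, 1.18 and 0.465 under combined stress. Its level fell under heat (log2 fold change -1.31 with SE 0.37, and adjusted p = 0.0404 by limma) and under combined stress (-1.87 with SE 0.37, and adjusted p = 0.00443 by limma), with no overlap with controls. The heat call was lost in 7 of 12 alternatives, among them leaving out any 1 heated library, with the highest adjusted p without control replicate 1 (-0.96, adjusted p = 0.124), and the combined-stress call kept its side of the threshold in the 12 alternatives run. DFR2 was at 5.17, 1.61 and 3.20 FPKM in control stigmas and 0.574, 0.350 and 0.221 under combined stress (log2 fold change -1.57 with SE 0.45, and adjusted p = 0.0269 by limma), and it lost its call without control replicate 1 (-1.27, adjusted p = 0.0905), without control replicate 3 or without any 1 of the combined-stress libraries.

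The other ANS copy was not called in the stigma. GLYMA_11G027700 was at 3.76, 1.56 and 2.02 FPKM in control stigmas and 2.06, 3.83 and 2.45 under combined stress, which overlapped (log2 fold change 0.16, 95% interval -0.45 to 0.77). Its share of summed ANS in the stigma was 27.0% ± 7.33 (SD, n = 3) in controls, 39.7% ± 6.56 under water deficit, 63.5% ± 5.24 in heat and 72.5% ± 13.9 under combined stress. The range of that share was 20.4% to 34.9% in controls and 57.0% to 84.1% under combined stress, so the libraries did not overlap, and the shift was not tested. Of the stigma libraries, control replicate 1 had both the highest summed FPKM of F3'5'H, DFR2 and the ANS copies, 21.6, and the highest share from the 686 sepal-enriched genes, 0.472% in a range of 0.359% to 0.472%. The part of that library's sepal transcripts in these falls was not tested.

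FLS1 fell in the ovary and stigma, where it was well expressed. In control stigmas it was at 99.9, 94.3 and 83.3 FPKM, against 63.9, 62.9 and 61.5 under heat (log2 fold change -0.55 with SE 0.11, and adjusted p = 0.0103 by limma). Under combined stress it was at 67.8, 62.3 and 80.4 FPKM (log2 fold change -0.40 with SE 0.11, and adjusted p = 0.0239 by limma). All heated and combined-stress stigmas were thus lower than all controls, and the combined-stress call was lost in 4 of 12 alternatives. Between combined stress and water deficit, 3 of 7 stigma members were lower and 0 higher (16.7% of all tested stigma genes), F3H GLYMA_02G048600 (log2 difference -1.59, adjusted p = 0.0123), FLS1 (-0.57, adjusted p = 0.00686) and ANS GLYMA_01G214200 (-1.49, adjusted p = 0.0198). Between combined stress and heat, limma called 0 of 7 (1.13% of all tested stigma genes). At an unadjusted p under 0.05 were 1 member and 4743 of all 33609 tested stigma genes. Water deficit alone gave 0 of 7 in the stigma (0.164% of all tested), with F3H GLYMA_02G048600 at an unadjusted p under 0.05 (log2 fold change 1.18, limma adjusted p = 0.321). That unadjusted threshold was passed by 2869 of all 33609 tested stigma genes.

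In the ovary, 25% of tested members were called under heat and under combined stress, beside 16.8% and 27.5% of all tested genes. F3H GLYMA_02G048600 and F3'5'H were tested there only through 1 water-deficit library each, replicate 2 at 7.58 FPKM and replicate 1 at 3.85 FPKM. FLS1 was lower under both, and DFR1 was higher under combined stress. FLS1 was at 73.3, 97.1 and 80.4 FPKM in control ovaries, 49.3, 57.3 and 56.8 under heat (log2 fold change -0.60 with SE 0.13, and adjusted p = 0.00833 by limma) and 61.9, 69.9 and 50.7 under combined stress (-0.45 with SE 0.13, and adjusted p = 0.0206 by limma). Its combined-stress call was lost without control replicate 2 (limma adjusted p = 0.0827) or combined replicate 3 (adjusted p = 0.0728). F3H GLYMA_02G048400 was at 377, 373 and 356 FPKM in controls and 265, 268 and 261 under heat (log2 fold change -0.48 with SE 0.13, and adjusted p = 0.0254 by limma), and leaving out any 1 control or heated library put its adjusted p between 0.0513 and 0.0774. These were the 2 of 8 tested members called under heat, both lower (16.8% of all tested ovary genes were called). DFR1 was at 2.86, 1.18 and 2.19 FPKM in control ovaries, 1.72, 2.63 and 2.70 under water deficit, 2.92, 2.66 and 4.36 under heat and 3.62, 6.10 and 4.62 under combined stress. All combined-stress libraries were higher than all controls and all water-deficit libraries (log2 fold change against control 0.93 with SE 0.24, and adjusted p = 0.0128 by limma). Without control replicate 2 the change was 0.70 (adjusted p = 0.0502), and without combined replicate 2 it was 0.77 (adjusted p = 0.0533).

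Under combined stress 1 ovary member was higher and 1 lower of 8 (27.5% of all tested ovary genes were called), and the same pair was called between combined stress and water deficit (21.3% of all tested), FLS1 by -0.68 (adjusted p = 0.00342) and DFR1 by 0.78 (adjusted p = 0.0357). The latter call was lost in 6 of 12 alternatives, with adjusted p up to 0.131. DFR2 and both ANS copies, which were much lower in stressed sepals, did not pass in the ovary, with log2 fold changes under combined stress of -0.41 (95% interval -1.71 to 0.89), 0.18 (-0.36 to 0.73) for GLYMA_11G027700 and 0.02 (-1.21 to 1.24) for GLYMA_01G214200. DFR2 was 60.9% ± 6.14 (SD, n = 3) of summed DFR in control ovaries and 30.8% ± 12.2 under combined stress, without overlap. Limma called 0 of 8 ovary members under water deficit (0.234% of all tested, 0 at an unadjusted p under 0.05) and 0 between combined stress and heat (0.789% of all tested, 1 at an unadjusted p under 0.05). Of all 33336 tested ovary genes, 2625 and 4583 passed that unadjusted threshold.

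In the anther few members were called, while a large part of the whole table was. Limma called 0 of 7 tested members under water deficit (0.00351% of all tested anther genes), 0 under heat (18.5%) and 0 under combined stress (62.4%), and 0, 0 and 1 had an unadjusted p under 0.05. Of all 28529 tested anther genes, 561, 9679 and 18983 passed that unadjusted threshold. F3H GLYMA_02G048400 was at 65.4, 103 and 105 FPKM in control anthers, 70.5, 80.2 and 48.6 under heat and 315, 106 and 163 under combined stress. All combined-stress libraries lay above the controls and above the heated ones, by 0.97 on the log2 scale against control (95% interval 0.06 to 1.88, limma adjusted p = 0.0595) and 1.42 against heat (SE 0.41, limma adjusted p = 0.0245). FLS1 was also higher under combined stress than under heat, at 104, 77.9 and 73.3 FPKM against 53.2, 56.3 and 25.7 (log2 difference 0.96 with SE 0.31, and adjusted p = 0.0354 by limma). These were the 2 of 7 called, both higher, where 33.8% of all tested anther genes were called and the median of all was 0.36. The median of all tested anther genes was 0.61 under combined stress against control, and 0.04 with libraries rescaled by the median of ratios. After that rescaling the differences of F3H GLYMA_02G048400 and FLS1 from heat were 0.94 (adjusted p = 0.0988) and 0.48 (adjusted p = 0.313), and without combined replicate 1 they were 1.00 (adjusted p = 0.0896) and 0.81 (adjusted p = 0.119). Between combined stress and water deficit 1 of 7 was higher (61% of all tested), F3H GLYMA_02G048400 by 1.10 (adjusted p = 0.0386), which was 0.33 (adjusted p = 0.512) after that rescaling.

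The interaction of heat and water deficit was called for 0 members in the anther, ovary and stigma alike, where 0.28%, 0.015% and 0% of all tested genes were called, and 1, 0 and 1 members had an unadjusted p under 0.05. Among all tested genes, 8206 of 28529, 2309 of 33336 and 2183 of 33609 passed that unadjusted threshold.

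Single libraries outside the sepal carried high values of the pigment genes. DFR2 was at 16.6 FPKM in ovary water-deficit replicate 1 and 1.96 and 2.45 in its partners, and in anthers it was at 8.67 in water-deficit replicate 1 and at 10.51 in combined replicate 1. In these 3 libraries the summed FPKM of F3'5'H, DFR2 and both ANS copies was 60.7, 36.4 and 31.8. The other ovary libraries had sums of 10.1 to 18.5 and the other anther libraries 2.73 to 10.8. The share from the 686 sepal-enriched genes was 0.425% in that ovary library, the highest of the ovary (range 0.273% to 0.425%). It was 0.147% and 0.224% in those anther libraries, the latter the highest of the anther (range 0.0616% to 0.224%). Its part in the pigment gene values of these organs was not tested.

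**Figure D5:**
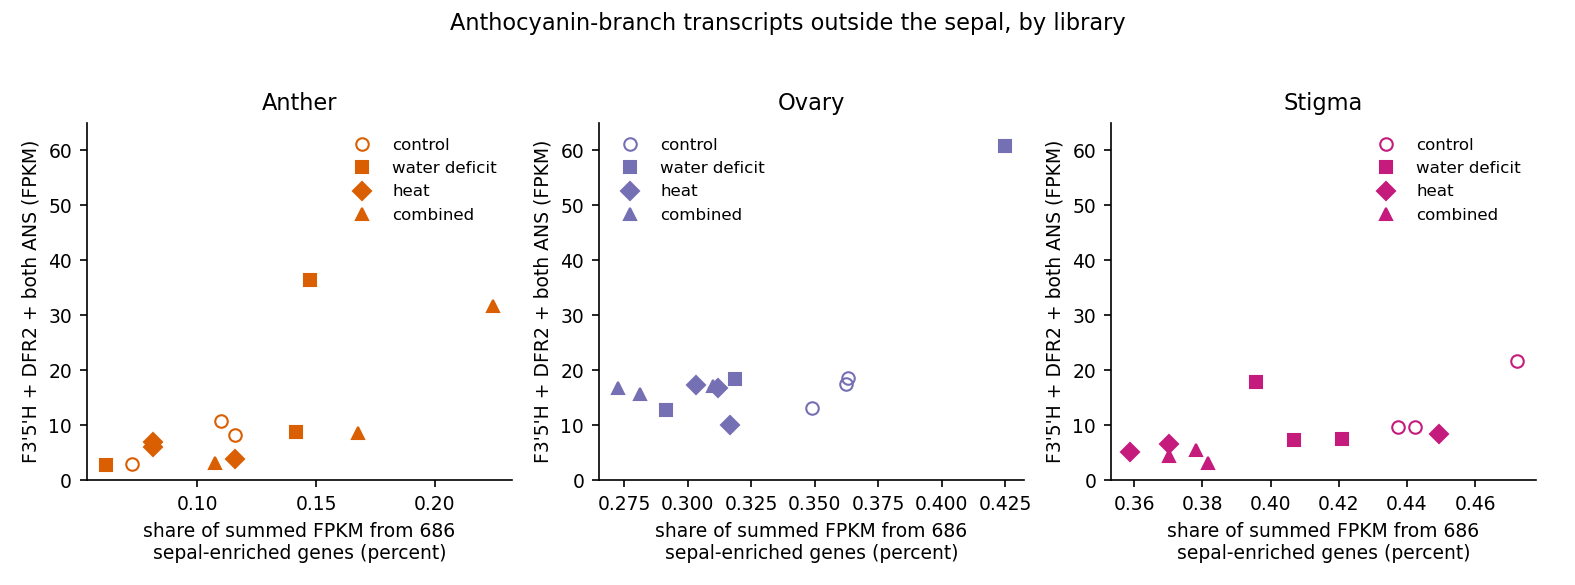
Summed FPKM of F3'5'H, DFR2 and both ANS copies (vertical axis) against the percent of FPKM from 686 other sepal-enriched genes (horizontal axis) in each anther, ovary and stigma library. Point shapes are treatments. Ovary water-deficit replicate 1 (60.7 FPKM, 0.425%), anther combined replicate 1 (31.8 FPKM, 0.224%) and stigma control replicate 1 (21.6 FPKM, 0.472%) lie at the right edge of their panels. Anther water-deficit replicate 1 (36.4 FPKM, 0.147%) and stigma water-deficit replicate 2 (18.0 FPKM, 0.396%) have high sums without the highest share.

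The difference between organs in the response to combined stress was fitted on 24 libraries per pair. Control levels of F3'5'H, DFR2 and both ANS copies in the anther, ovary and stigma were too low for a fall as large as that of the sepal on the log2(FPKM + 1) scale. F3'5'H was below 1 FPKM in the mean of every stigma group and entered that pair only through the sepal. For these 4 genes the sign of the difference was therefore set by the levels, and the differences are given with no test. For ANS GLYMA_11G027700 it was 5.08 (SE 0.65) in the anther, 4.86 (SE 0.33) in the ovary and 4.84 (SE 0.36) in the stigma. For ANS GLYMA_01G214200 it was 5.13 (SE 0.87) in the anther, 4.55 (SE 0.63) in the ovary and 2.66 (SE 0.49) in the stigma, the organ where that copy fell as well.

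F3H GLYMA_02G048400 was high enough in every organ for the difference to be tested. Its response to combined stress exceeded that of the sepal by 0.99 in the stigma (SE 0.16, limma adjusted p = 0.000848), a call kept in the 18 alternatives run. In the anther it exceeded that of the sepal by 1.71 (SE 0.46, limma adjusted p = 0.00525), but by 0.65 (adjusted p = 0.294) after median-of-ratios rescaling. In the ovary the difference was 0.57 and did not pass (95% interval 0.20 to 0.95, limma adjusted p = 0.0534). With the 4 low genes and ovary DFR1 included, the fit placed 5 of 8 members higher in the anther (48.6% of all genes tested on that pair were called), 5 of 9 for the ovary (8.1%), and 5 of 8 for the stigma (7.8%), but nothing is read from these counts. The 3 pairs share the sepal libraries, so their differences are not independent. Each difference also contains the control sepals that had a part in the choice of genes, so the p-values here are no independent support.

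Under heat the same differences contain the sepal values that had a part in the choice of genes and are given with no test. The fit placed 2 of 8 members past the threshold in the anther (14.4% of all genes tested on that pair), 4 of 9 for the ovary (4.18%), and 2 of 8 for the stigma (3.72%), and nothing is read from these counts either. For FLS1 no difference between organs passed. Its response to combined stress differed from that of the sepal by -0.13 in the ovary (95% interval -0.50 to 0.25, limma adjusted p = 0.736) and by -0.07 in the stigma (95% interval -0.41 to 0.27, adjusted p = 0.854).

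Over the 16 group means, correlated on log2(FPKM + 1) with 28513 genes ranked, DFR2, F3'5'H and ANS GLYMA_01G214200 were among each other's nearest. The profile closest to DFR2 was that of ANS GLYMA_01G214200 (Pearson r 0.976), followed by F3'5'H (0.970), and ANS GLYMA_11G027700 ranked 7 (0.938). Among the genes nearest to F3'5'H, ANS GLYMA_11G027700 ranked only 78 (r 0.899), and in reverse F3'5'H ranked 22. The nearest genes outside the list were GLYMA_18G043700 (r 0.961) and GLYMA_14G078000 (r 0.959) for DFR2. GLYMA_04G049200 was the nearest to ANS GLYMA_01G214200 (r 0.977). For F3'5'H the nearest was GLYMA_02G014900 (r 0.971), and for ANS GLYMA_11G027700 it was GLYMA_08G017200 (r 0.966). FLS1 did not belong to this group, as its nearest member, F3'H, had r 0.836 and rank 321, and its nearest gene was GLYMA_16G141300 (r 0.947). The points share libraries and organs, and the difference between the sepal and the other organs sets much of these values. Among the points are the heated and control sepals that had a part in the choice of genes.

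Within sepal groups the members varied together to different degrees. Over the 12 sepal libraries, the deviations from the group means correlated at 0.933 between the ANS copies, at 0.806 between F3'H and F3'5'H and at 0.757 between F3'5'H and DFR2. Those of ANS GLYMA_01G214200 correlated at 0.795 with F3H GLYMA_02G048400, at 0.567 with DFR2 and at 0.534 with FLS1. The deviations of FLS1 correlated at 0.195 with those of DFR2 and at 0.614 with those of F3H GLYMA_02G048400. All genes of a library share its pool of flowers and its scaling.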

How the data were processed

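The authors deposited FPKM per gene in a separate table for each organ (48 libraries, 57147 identifiers). Reads had been aligned with HISAT2 2.2.1, per the submitters' processing notes. The sources used here do not name the quantifier, genome build or annotation, and depth is unknown, so no counting interval is given. Each organ was fitted over all its genes with limma 3.58.1 in R 4.3.3 (data.table version 1.17.8), using robust moderation with a trend on the mean, after log2(FPKM + 1) transformation. Genes with a group mean of at least 1 FPKM were tested. Organ pairs were fitted on 24 libraries for the difference of responses. The fits were tested on simulated data, and descriptions used Python 3.11.15 with numpy 2.4.6, pandas 2.3.3 and matplotlib 3.10.9. The members and lists were chosen with earlier results of these data known, and all 9 members are named. For likeness of pattern, the 2 most similar genes were found for each member with a group mean of at least 5 FPKM, and the text gives some of them. No identifier (0 of 57147) could be matched in the reference, so further pathway genes and tissue markers were not analysed here. No 2 libraries held identical values. Alternatives were a pseudocount of 0.1, no filter, median-of-ratios rescaling, no trend or robust moderation, a replicate block, leaving out anther-enriched genes (anther fits), leaving out each library, and, added after seeing the data, summed F3H copies.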

Additional observations from a re-analysis of the deposited data

Results flagged for a closer look

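Flagged for several genes was the difference between the log2 fold change of an organ and that of the sepal (limma, adjusted over all genes tested on the pair). Under combined stress this difference for F3H GLYMA_02G048400, a well expressed gene in all organs, was 0.99 in the stigma (adjusted p = 0.000848) and 1.71 in the anther (adjusted p = 0.00525), the latter 0.65 (adjusted p = 0.294) after median-of-ratios rescaling. These values contain the control sepals that had a part in the choice of genes, so their p-values are no independent support. For the other genes the values are given as a description. F3'5'H, DFR2 and both ANS copies were too low outside the sepal for a fall of the size seen there, so the levels set the sign. The anther exceeded the sepal by 4.92 for F3'5'H, 5.001 for DFR2, 5.08 for ANS GLYMA_11G027700 and 5.13 for ANS GLYMA_01G214200. The ovary exceeded it by 4.47 for F3'5'H, 4.42 for DFR2, 4.86 for ANS GLYMA_11G027700 and 4.55 for ANS GLYMA_01G214200. The stigma exceeded it by 3.71 for F3'5'H, 3.26 for DFR2, 4.84 for ANS GLYMA_11G027700 and 2.66 for ANS GLYMA_01G214200. DFR1 was listed at 0 in all control and combined-stress sepals, so its ovary difference of 0.93 is the change of the ovary itself.

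Under heat the differences contain the sepal values that had a part in the choice of genes, and they are given as values with nothing read from them. They were 3.04 for F3'5'H and 2.85 for ANS GLYMA_11G027700 in the anther. They were 3.00 for F3'5'H, 2.56 for DFR2, 2.84 for ANS GLYMA_11G027700 and 2.33 for ANS GLYMA_01G214200 in the ovary. They were 2.26 for F3'5'H and 3.26 for ANS GLYMA_11G027700 in the stigma, where F3'5'H was below 1 FPKM in the mean of each group. Groups of 3 libraries were too small to be searched for single outlying libraries.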

How the results depend on the processing

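The 60 called differences of members gave 867 values under the alternatives, of which 763 kept their call, 104 lost it and 0 reversed. These totals include sepal heat differences and differences from the sepal, whose calls are no support. The 5 sepal calls under combined stress against control kept their side of the threshold in all 12 alternatives. They rest on the control sepals that had a part in the choice of genes. With a pseudocount of 0.1 instead of 1, members called numbered 1 instead of 2 in the heated stigma, 1 instead of 4 for ovary minus sepal under heat, 1 instead of 2 for stigma minus sepal under heat and 3 instead of 5 for stigma minus sepal under combined stress. Nothing is read from the counts of differences from the sepal. The mean log2 ratio of F3'5'H to F3'H in sepals was 2.24 instead of 2.13 under water deficit and -2.00 instead of -1.54 under combined stress. Without the filter, members called numbered 1 instead of 2 for anther combined stress against heat, 0 instead of 1 for anther combined stress against water deficit and 1 instead of 2 for ovary combined stress against water deficit. Median-of-ratios rescaling and leaving out the anther-enriched genes each gave 0 in those anther comparisons. With the rescaling, 10107 instead of 17810 anther genes were called under combined stress, and the sepal split under combined stress was 3486 higher and 3796 lower instead of 2385 and 5611. The cause was not tested.

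Leaving out 1 library at a time gave 2 to 4 members for sepal combined stress against heat, 0 to 1 for the sepal interaction, 0 to 1 for anther combined stress against control, 0 to 2 for anther combined stress against heat and 0 to 1 for anther combined stress against water deficit. It gave 1 in each case for the heated ovary, 0 to 2 for ovary combined stress against control and 1 to 2 against water deficit. In the stigma it gave 1 to 2 under heat and 1 to 2 under combined stress, and for ovary minus sepal under heat 2 to 3.

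Within an organ, same-numbered libraries of different treatments did not deviate together on average (mean correlations of -0.023 to -0.009, single pairs -0.256 to 0.276). Pairs over 0.1 numbered 3 of 18 in the anther and 3 of 18 in the stigma. Correlations between organs were not computed, and the fits of organ pairs treat libraries of different organs as independent. With a replicate block, ovary minus sepal under heat had 2 members called instead of 4, the sepal kept a count of 5 under combined stress, and no other count of members moved by 1.5 times or more except that of the heated stigma, 3 instead of 2. Depth is unknown, and genes near 1 FPKM outside the sepal carry the least certain values.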
